A study of Mus musculus with 6 samples.

Results

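The genes of fibroblast growth factor (FGF) signalling were followed across a promoter map of SMAD binding in mouse embryonic stem cells. They were taken by name from the array annotation, as every probe labelled with an Fgf ligand gene, an Fgf receptor gene (Fgfr1 to Fgfr4 and Fgfrl1), a Sprouty gene (Spry) or a Sprouty-related Spred gene, including probes of divergent promoters that list such a gene second. This gave 1223 of 474380 probes and 32 of 17096 genes. There were 21 ligand genes with 803 probes, 5 receptor genes with 194, 3 Sprouty genes with 115 and 3 Spred genes with 111. The ligand genes were grouped by name and include Fgf11 to Fgf14, which encode intracellular proteins. A divergent promoter shared with another gene supplied 41 of the probes, beside Spred3, Fgf21, Fgf22 and Spry4. Array 1 and array 2 each held 16 of the genes, with 612 and 611 probes.

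Chromatin of undifferentiated R1 cells, an established mouse embryonic stem cell line kept without feeder cells in knockout serum replacement with leukemia inhibitory factor, was immunoprecipitated with antibodies raised against the linker regions of human SMAD1 (called SMAD1/5 by the submitters), SMAD2 or SMAD4. SMAD1 and SMAD5 respond to BMP ligands and SMAD2 to ligands of the Activin and TGF-beta branch, and SMAD4 joins either kind in a complex. Each immunoprecipitate was hybridised in Cy5 against its own whole cell extract DNA, the input, in Cy3, on a pair of arrays with different probes, and all 6 arrays share the cell line, the culture and this dye orientation. There was 1 biological replicate per antibody, so each value comes from a single array, no p-value is given, and every SD below is a spread over probes that does not measure the spread between experiments.

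FGF ligands bind receptor tyrosine kinases at the cell surface with heparan sulfate, and the receptors signal through RAS to the kinase ERK. Mouse embryonic stem cells make Fgf4, which acts on them through ERK and moves them towards differentiation, while Fgf5 is a marker of the primed state that follows. Sprouty and Spred proteins are inhibitors of the RAS to ERK relay, and several of their genes are themselves induced by FGF, as feedback.

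The values are log2 ratios of immunoprecipitate over input, centred on each array's median, so 0 is the median of all probes. A window is the mean over probes within 500 bp of a probe, with at least 3 probes, and its z counts how many robust SDs it lies from the median window of its array. Peak z stands for the top window of a gene. A window with a z of at least 4 and at least 2 high probes was called enriched, and the mirror image of this rule gave low windows. This threshold stood at 24.4-fold and 18-fold on the SMAD1/5 arrays, 4.90-fold and 4.68-fold on the SMAD2 arrays and 4.94-fold and 4.89-fold on the SMAD4 arrays. The FGF genes had a median of 34.5 windows with SMAD4 against 26 for all genes, which gives each more chances of a high window.

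Of the 32 genes, the intracellular Fgf gene Fgf14 and the receptor-like gene Fgfrl1 were enriched with SMAD4, 0 were enriched with SMAD2 and 0 with SMAD1/5. Across all genes with windows 2.5% were enriched with SMAD4, 0.0656% with SMAD2 and 0% with SMAD1/5. Low windows were called at Spry2 with SMAD1/5, where 2.64% of all genes had one, and at 0 of the 32 with SMAD2 and with SMAD4, where 0.334% and 0.0477% of all genes had one. A peak z of at least 2 was reached by 17 of the 32 genes with SMAD4 (53.1%, all genes 40.3%), by 9 with SMAD2 (28.1%, all genes 18.4%) and by 2 with SMAD1/5 (6.25%, all genes 5.95%). The median peak z was 2.09 with SMAD4 (all genes 1.74), 1.45 with SMAD2 (1.35) and 1.28 with SMAD1/5 (1.26).

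**Figure D1:**
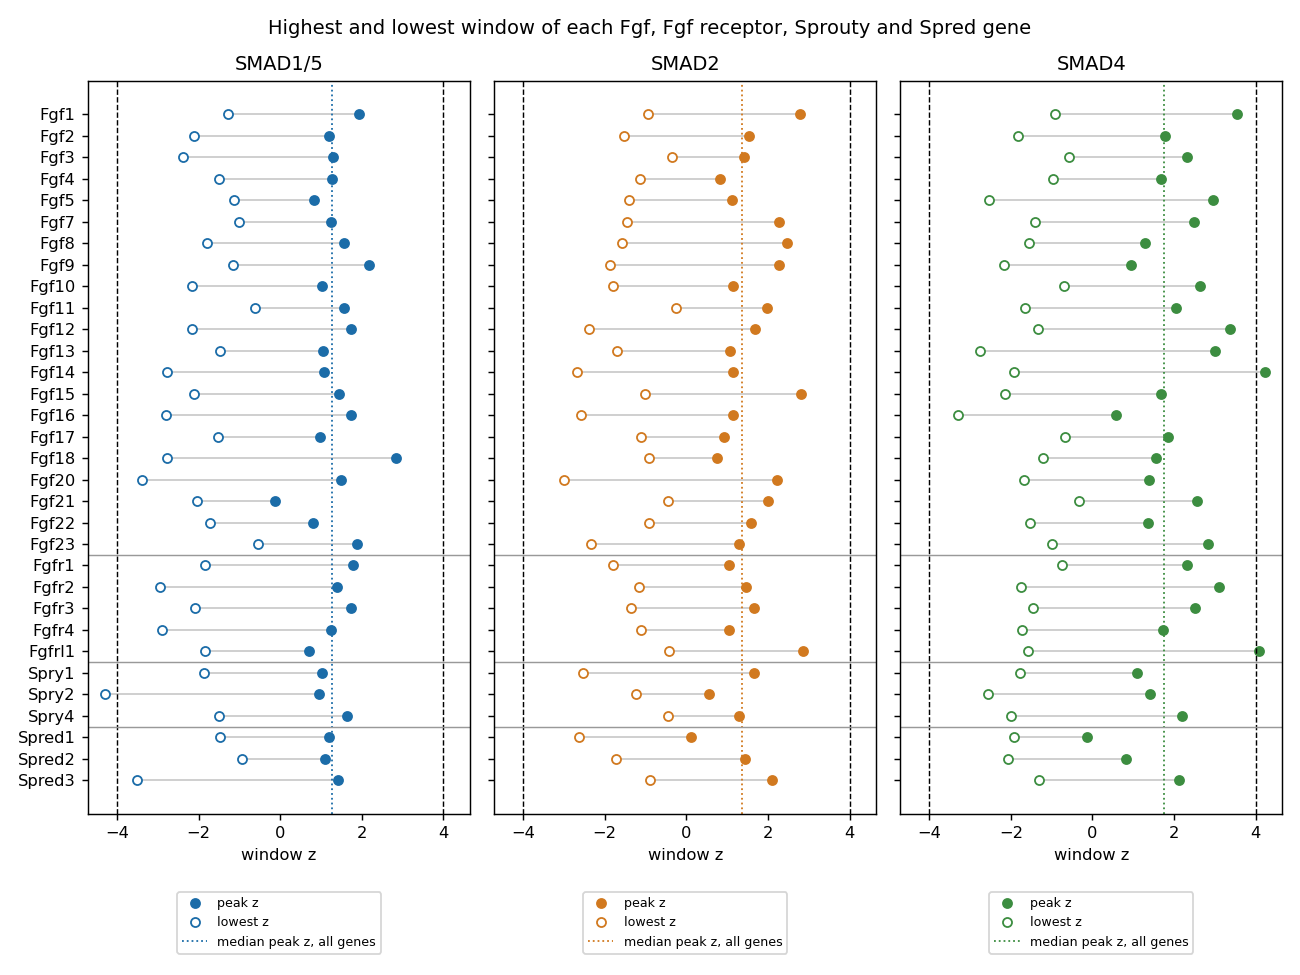
Highest (filled) and lowest (open) window z of each of the 32 genes with each antibody, by family from ligands at the top to Spred genes at the bottom; dashed lines mark the call thresholds of 4 and -4 and the dotted line the median peak z of all genes. Fgf14 (4.23) and Fgfrl1 (4.09) pass on the SMAD4 side and Spry2 (-4.28) on the low side of SMAD1/5.

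The single probes of these genes lay close to the level of the arrays. The median log2 ratio of the FGF gene probes was 0.0064 with SMAD1/5, 0.08 with SMAD2 and -0.03 with SMAD4, where all probes have 0. A log2 ratio of at least 1, or 2-fold, was found at 308 of 1222 probes with SMAD1/5 (25.2%, all probes 27.5%), at 136 of 1211 with SMAD2 (11.2%, all probes 12.7%) and at 196 of 1223 with SMAD4 (16%, all probes 16.5%). A ratio of at most -1 was found at 31.1% with SMAD1/5 (all probes 31%), 12% with SMAD2 (13.5%) and 10.6% with SMAD4 (10.1%).

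With SMAD1/5 and SMAD4 the family medians departed most from 0 for the Sprouty and Spred probes, and with SMAD2 for the receptor and ligand probes. Sprouty probes had a median log2 ratio of -0.73 with SMAD1/5 (95% interval of the median over probes -1.06 to 0.05) and -0.18 with SMAD4 (-0.43 to -0.03), and 0.02 with SMAD2. The 3 Sprouty genes did not share a sign with SMAD1/5, with gene medians of -0.64 for Spry1, -0.90 for Spry2 and 0.92 for Spry4. Spred probes had 0.15 with SMAD1/5, -0.08 with SMAD2 and -0.22 with SMAD4 (-0.35 to -0.16), where 6 of 111 probes (5.41%) reached 2-fold. The SMAD4 gene medians differed, at -0.57 for Spred1, -0.29 for Spred2 and -0.00097 for Spred3, and 5 of those 6 probes belong to Spred3. Receptor probes had -0.0070, 0.15 (0.04 to 0.23) and 0.04 for SMAD1/5, SMAD2 and SMAD4, and 18.6% of them reached 2-fold with SMAD4. Ligand probes had 0.02, 0.09 (0.03 to 0.15) and 0.03, with 17.8% at 2-fold with SMAD4. Of the 803 ligand probes, 221 belong to the intracellular Fgf11 to Fgf14, and 22.2% of these reached 2-fold with SMAD4. In the other ligand sub-families this share ran from 7.62% to 25.2%. Probes of a gene overlap in the DNA fragments they measure and are not replicates, so these intervals are descriptions of the probes. Over 7 alternatives the Sprouty median ran from -0.73 to -0.10 with SMAD1/5 and from -0.21 to -0.17 with SMAD4, and the Spred median with SMAD4 from -0.23 to -0.07. The ligand, receptor and Spred medians with SMAD1/5 and the Sprouty median with SMAD2 took either sign.

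**Figure D2:**
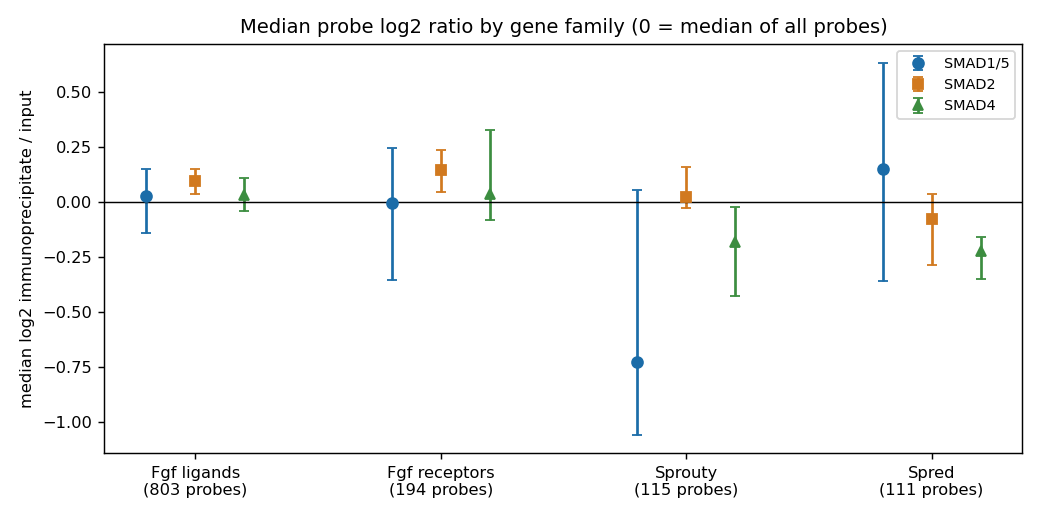
Median log2 ratio of immunoprecipitate over input for the probes of each family and antibody, with the 95% order-statistic interval of the median over probes; the line at 0 is the median of all probes of the arrays. The Sprouty median with SMAD1/5 is -0.73 over genes of either sign (Spry4 0.92), and the Spred and Sprouty medians with SMAD4 are -0.22 (Spred3 alone -0.00097) and -0.18.

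Fgf14 encodes an intracellular FGF that binds voltage-gated sodium channels and does not act through FGF receptors. Its SMAD4 window had the highest z of the 32 genes, 4.23, with a mean log2 ratio of 2.42 ± 1.45 (SD over 6 probes). It lies on chromosome 14 from 119121814 to 119122687, at the one of its 2 tiled start sites with the higher coordinate. The array annotation gives these positions, and the sources used here do not name its genome build. Going inward from the start, the probes at 143, 390, 540, 642 and 746 bp had log2 ratios of 4.17, 3.08, 2.61, 2.25 and 2.61, and the probe at -79 bp had -0.21. These 5 neighbouring probes are all over 4-fold, and the sixth, just upstream of the start, is at the level of the array.

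In those 6 probes, from 143 bp inward and then at -79 bp, the processed immunoprecipitate signal was 410.5, 695, 486, 688, 1070 and 598 and the input signal 24.2, 87.2, 84.1, 153, 185 and 732. The immunoprecipitate varied by less than 3-fold along the window, while the input was lowest where the ratio was highest. Against the mean of the other antibodies in the same window, the centred SMAD4 immunoprecipitate was 0.41 log2 units higher and the SMAD4 input 2.14 lower. Values given below as above or below the others are against this mean. Against each antibody singly, the SMAD4 immunoprecipitate of Fgf14 was 0.31 below the higher of the others, and the SMAD4 input was 1.94 below the lower of the others. The same window had a z of 0.32 with SMAD2 and -0.21 with SMAD1/5. With the mean input of the 3 antibodies in place of the SMAD4 input, the peak z of Fgf14 was 1.68. Here and below, the peak or lowest z under an alternative is that of a window picked anew over the whole gene. It need not be the window described. The call was also lost with the authors' deposited log2 values (2.99) and in 4 other alternatives.

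Fgfrl1 encodes a receptor of the FGF family that lacks the tyrosine kinase domain. Its SMAD4 peak had a z of 4.09 and a mean of 2.35 ± 2.08 (SD over 3 probes). It lies on chromosome 5 from 107877923 to 107878370, centred 2913 bp inside the start site, at the edge of the probes for this gene. The 3 probes had log2 ratios of -0.05 at 2519 bp, 3.53 at 2782 bp and 3.57 at 2913 bp, so 2 of the 3 carried the value. With SMAD2 the highest window of Fgfrl1 lay 131 bp away, with a z of 2.85, the highest of the 32 genes for that antibody, and a mean of 1.64 ± 0.76 (4 probes). Its probes had 1.68 at 2356 bp, 1.90 at 2519 bp, 2.40 at 2782 bp and 0.60 at 2913 bp.

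At Fgfrl1 the SMAD4 and SMAD2 immunoprecipitates lay close together near the median of the array, and that of SMAD1/5 lay far below. In the SMAD4 window the centred immunoprecipitates averaged -0.05 with SMAD4, 0.02 with SMAD2 and -2.59 with SMAD1/5, and the inputs -2.29, -1.70 and -0.56. In the SMAD2 window the immunoprecipitates averaged -0.20 with SMAD2, -0.09 with SMAD4 and -3.16 with SMAD1/5, and the inputs -1.93, -1.88 and -0.75. The SMAD1/5 immunoprecipitate signals at these 4 probes ran from 17.8 to 295, and the lowest was not well above background. So the SMAD4 immunoprecipitate was 1.23 above the mean of the others while it did not exceed that of SMAD2, and the SMAD2 immunoprecipitate was 1.43 above the mean while it did not exceed that of SMAD4. With SMAD1/5 the same stretch was on the other side, with a z of -0.97 in the SMAD4 window. With the mean input the peak z of Fgfrl1 was 2.74 with SMAD4 and 3.02 with SMAD2, and with the authors' deposited log2 values 3.08 and 2.26. The SMAD4 call held with only probes well above background. That filter could hardly change it, as 100% of the FGF gene probes passed in the SMAD4 immunoprecipitate and 99.9% in the input. The call was lost in 8 alternatives, among them a minimum of 4 probes per window.

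**Figure D3:**
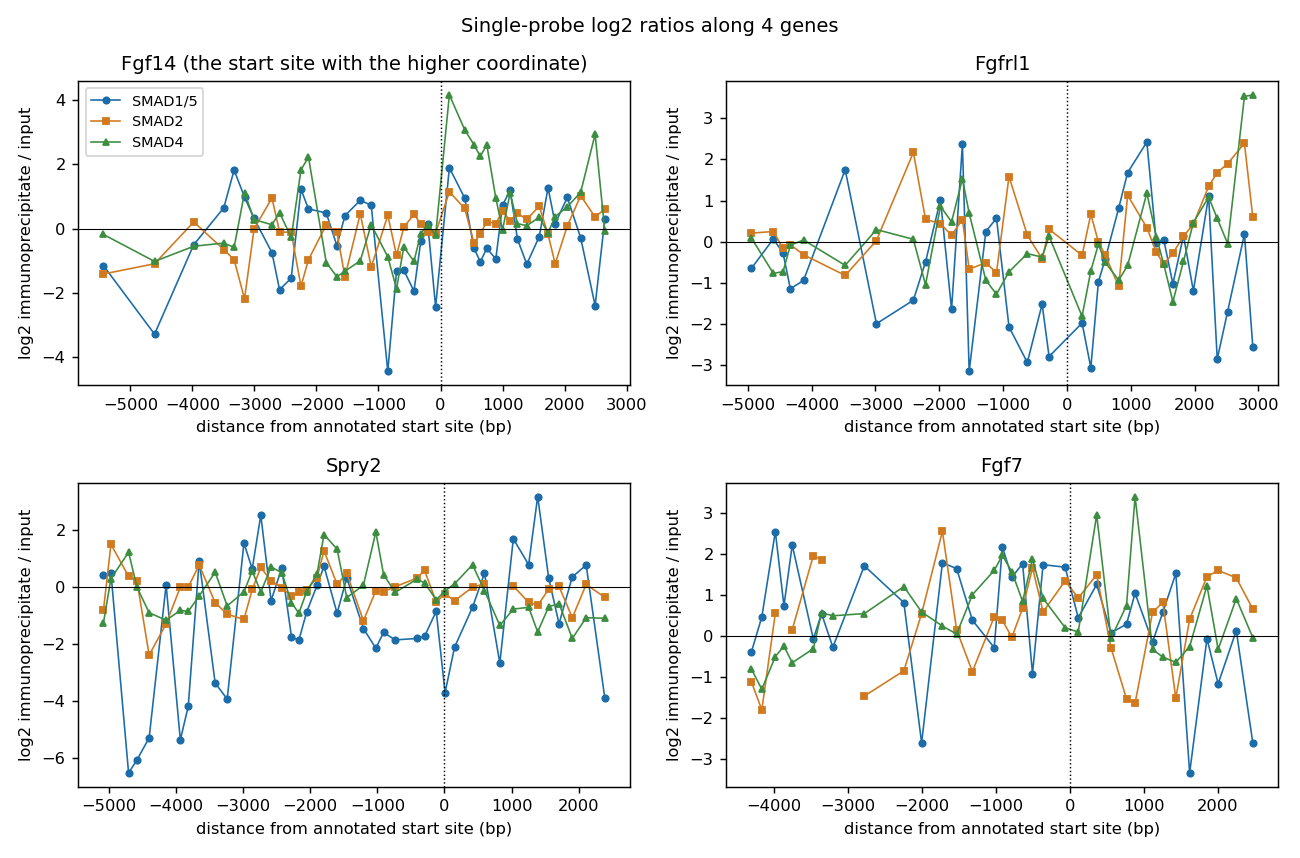
Single-probe log2 ratio of immunoprecipitate over input against distance from the annotated start site (dotted line; negative is upstream) at Fgf14, Fgfrl1, Spry2 and Fgf7, with a line for each antibody. SMAD4 is high at 5 neighbouring probes inside the Fgf14 start, SMAD4 and SMAD2 at the end of the Fgfrl1 tiling, and SMAD1/5 has values down to -6.54 upstream of Spry2.

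The paracrine ligands bind surface receptors, and Fgf1 and Fgf2 are released without a classical signal peptide. Fgf1 was among the 3 highest genes with every antibody, in a different window each time. Its SMAD4 window lay at -1650 bp with a z of 3.54 and probes at 0.78, 2.44 and 2.90. Its SMAD2 window lay at -4427 bp with a z of 2.78 (1.56 ± 0.95, 5 probes), and its SMAD1/5 window at -2988 bp with a z of 1.94 and probes at 0.99, 2.38 and 2.56. In the SMAD4 window of Fgf1 the z was 1.11 with SMAD2 and 0.42 with SMAD1/5, so the 3 antibodies did not share a peak there. Fgf2 had peak z of 1.2, 1.53 and 1.77 with SMAD1/5, SMAD2 and SMAD4.

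Fgf4, the ligand that embryonic stem cells make, had no window with a z of 2. Its peak z was 1.27 with SMAD1/5, 0.82 with SMAD2 and 1.67 with SMAD4, beside medians of 1.26, 1.35 and 1.74 for all genes. Fgf5 had its peak at the same end of its tiling with SMAD2 and SMAD4, at -5170 bp, with a z of 1.12 and 2.96. The SMAD4 value was 1.72 ± 0.54 over 4 probes, with an immunoprecipitate 0.11 above and an input 1.15 below the others. Fgf3, Fgf4 and Fgf15 neighbour each other on chromosome 7 in the array annotation, and their SMAD4 peak z were 2.32, 1.67 and 1.68.

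Fgf8, Fgf17 and Fgf18 form a sub-family of embryonic signalling centres. Fgf18 had the highest SMAD1/5 value of the 32 genes, with a z of 2.83 at -3666 bp and a mean of 2.93 ± 1.29 (SD over 3 probes). Its probes had 4.29, 1.73 and 2.76, with input signals of 119, 137 and 130. It lay at percentile 99.9 among the peaks of all genes with SMAD1/5, and with windows of 250 bp each side its peak z was 1.24. Fgf8 had a peak z of 2.46 with SMAD2 at -4114 bp, and Fgf17 stayed below 2 with each antibody.

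Fgf9, Fgf16 and Fgf20 form the sub-family secreted without a cleaved signal peptide. Fgf9 was the second gene to pass a z of 2 with SMAD1/5, at -3391 bp with a z of 2.18 and a mean of 2.24 ± 1.16 (6 probes from 0.72 to 3.43). In that window the input of the probe with 3.40 was not well above background. The SMAD2 peak of Fgf9 lay at the start site, centred at 111 bp, with a z of 2.28 and a mean of 1.28 ± 0.62 (5 probes). Fgf16, on chromosome X, had the lowest SMAD4 window, with a z of -3.29 and probes at -2.21, -1.06 and -1.99. Fgf20 was the lowest gene with SMAD2, at -3464 bp (z -3.01, probes at -0.0039, -1.89 and -3.12), where SMAD1/5 had a z of 0.99. The SMAD2 immunoprecipitate of the probe with -3.12 was not well above background. The lowest SMAD1/5 window of Fgf20 was another one, at -1696 bp, with a z of -3.37. These windows did not pass the threshold for low windows. With the mean input of the 3 antibodies, which includes that of SMAD1/5, the lowest SMAD2 z of Fgf20 was -5.30 and was called. That window was picked anew over the whole gene and is not the one at -3464 bp. Of all genes 3.11% were called low with SMAD2 in that setting, against 0.334% with the SMAD2 input alone. The part of the SMAD1/5 input in this call was not tested.

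The Fgf3, Fgf7, Fgf10 and Fgf22 sub-family signals from mesenchyme to epithelium, and with SMAD4 25.2% of its 147 probes reached 2-fold, against 16.5% of all probes. This was the highest SMAD4 share of the 7 ligand sub-families, and the lowest were 7.62% for Fgf9, Fgf16 and Fgf20 and 8.16% for Fgf1 and Fgf2. With SMAD1/5 the share of the Fgf3, Fgf7, Fgf10 and Fgf22 probes was 22.4%, against 27.5% of all probes. Peak z with SMAD4 were 2.32 for Fgf3, 2.50 for Fgf7, 2.62 for Fgf10 and 1.36 for Fgf22. The endocrine ligands Fgf15, Fgf21 and Fgf23 circulate as hormones and need Klotho co-receptors. Fgf15 had the second SMAD2 value of the 32 genes, a z of 2.81 at -5006 bp with probes at 0.45, 2.20 and 2.21, and its 2 high probes were not well above background in the input. Fgf21 and Fgf23 had SMAD4 peak z of 2.57 and 2.83, and in both windows the input was over 2 log2 units below the others (-2.43 and -2.22).

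All 4 intracellular FGF genes, Fgf11 to Fgf14, had a SMAD4 peak z over 2 (all genes 40.3%), and 1 of the 4 with the mean input (all genes 12%). The values were 2.04, 3.38, 2.99 and 4.23, with a median of 3.19 against 1.74 for all genes. Fgf12 and Fgf14 have 2 tiled start sites each, with 61 and 83 probes used with SMAD1/5, more than any other of the 32 genes. With SMAD2 and SMAD1/5 the median peak z of the 4 genes was 1.41 and 1.31, and 0 of the 4 reached 2. Fgf13, on X, also held the second lowest SMAD4 window, with a z of -2.74 at -2080 bp.

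Of the receptors, 4 of 5 had a SMAD4 peak z over 2 (all genes 40.3%), and 1 of 5 with the mean input of the 3 antibodies (all genes 12%). Fgfr1, the main receptor of mouse embryonic stem cells, had 2.32 with SMAD4, 1.05 with SMAD2 and 1.78 with SMAD1/5. Its SMAD1/5 window at 1127 bp had a mean of 1.95 ± 0.43 (4 probes), with the immunoprecipitate 1.70 above and the input 0.25 below the others. This was the largest such excess of an immunoprecipitate among the 32 SMAD1/5 peak windows. Fgfr2 had 3.1 with SMAD4, at 4839 bp inside its start (1.80 ± 1.45, 6 probes), with the immunoprecipitate 0.04 below and the input 1.66 below the others. Fgfr2 had 1.47 with SMAD2 and 1.38 with SMAD1/5. Fgfr3 had 2.52 with SMAD4, 1.66 with SMAD2 and 1.74 with SMAD1/5. Fgfr4 had 1.73, 1.04 and 1.24 with SMAD4, SMAD2 and SMAD1/5, and Fgfrl1 with SMAD1/5 had 0.70.

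The Sprouty genes, feedback inhibitors of receptor tyrosine kinases, had no enriched window. Spry4 had its highest window in the same 3 probes with all antibodies, 2429 bp inside its start, with a z of 2.19 with SMAD4, 1.65 with SMAD1/5 and 1.30 with SMAD2. The mean log2 ratios there were 1.29 ± 1.26, 1.67 ± 1.01 and 0.75 ± 0.56 (SD over 3 probes). Averaged over the 3 probes, each input was within 0.18 log2 units of the others, but the inputs of single probes differed. At 2066 bp they were -2.16 with SMAD1/5, -2.13 with SMAD2 and -0.04 with SMAD4. At 2429 bp they were 0.13, -0.66 and -1.81 in the same order. Spry4 has 15 probes, the fewest of the 32 genes, so few other windows could have been its highest. Spry1 had peak z of 1.04, 1.65 and 1.10 with SMAD1/5, SMAD2 and SMAD4, and Spry2 had 0.95, 0.55 and 1.42.

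Spry2 held the 1 low call, with SMAD1/5, on chromosome 14 from 100330413 to 100331240. The window was centred at -4401 bp with a z of -4.28 and a mean of -4.65 ± 2.68 (SD over 5 probes). The probes from -3936 to -4707 bp had -5.38, 0.05, -5.31, -6.08 and -6.54, so 4 of 5 were far below the array. In those 4 the immunoprecipitate signal ran from 1073 to 2766 and the input signal from 47463 to 136556. The SMAD1/5 input was 5.72 log2 units above the other inputs and the immunoprecipitate 1.14 above the others, and z was -1.22 with SMAD2 and -0.77 with SMAD4. With the mean input its lowest z was -1.39, and the call was also lost without the input trend, with loess and with windows of 1000 bp each side.

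Spred genes encode membrane proteins that keep RAS from activating RAF. Spred1 was the lowest gene of the 32 in its peak with both SMAD2 and SMAD4, with a peak z of 0.12 and -0.13, and 0 of its probes reached 2-fold with SMAD4. Its whole-gene median log2 ratio was -0.78 with SMAD2 and -0.57 with SMAD4, against 0.11 with SMAD1/5. Spred2 had SMAD4 and SMAD2 peak z of 0.83 and 1.44. Spred3 had 2.13 and 2.09 and also the second lowest SMAD1/5 window, with a z of -3.51, 279 bp inside the start. Its 5 probes ran from -7.22 to -0.88 there, and the SMAD1/5 input was 4.32 above the others.

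Both channels of the peak windows were set beside those of the other antibodies. Each window was picked for its highest ratio over its own input, which by itself favours a low input or a high immunoprecipitate. The counts of channels below were not made for the peak windows of all genes. Of the 32 peak windows, 20 with SMAD4, 17 with SMAD2 and 7 with SMAD1/5 had an input at least 2-fold under the average of the other antibodies. An immunoprecipitate at least 2-fold over that average was found in 1, 1 and 5 windows, the first 2 being the Fgfrl1 windows above. Against each of the other antibodies singly, the immunoprecipitate was at least 2-fold higher in 0, 0 and 3 windows, and the input at least 2-fold lower in 12, 11 and 3. The median difference was 0.04 for the SMAD4 immunoprecipitate and -1.20 for its input, -0.03 and -1.11 for SMAD2, and 0.59 and -0.23 for SMAD1/5. The 5 SMAD1/5 windows are those of Fgfr1 (1.70), Fgf9 (1.38), Fgf16 (1.22), Fgfr3 (1.13) and Fgf23 (1.10). With the mean input of the 3 antibodies, a peak z of at least 2 was reached by 5 of the 32 genes with SMAD4 (all genes 12%) and by 10 with SMAD1/5 (all genes 19.5%). With SMAD2 that count changed by a smaller factor from the 9 with its own input, and is not given here.

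**Figure D4:**
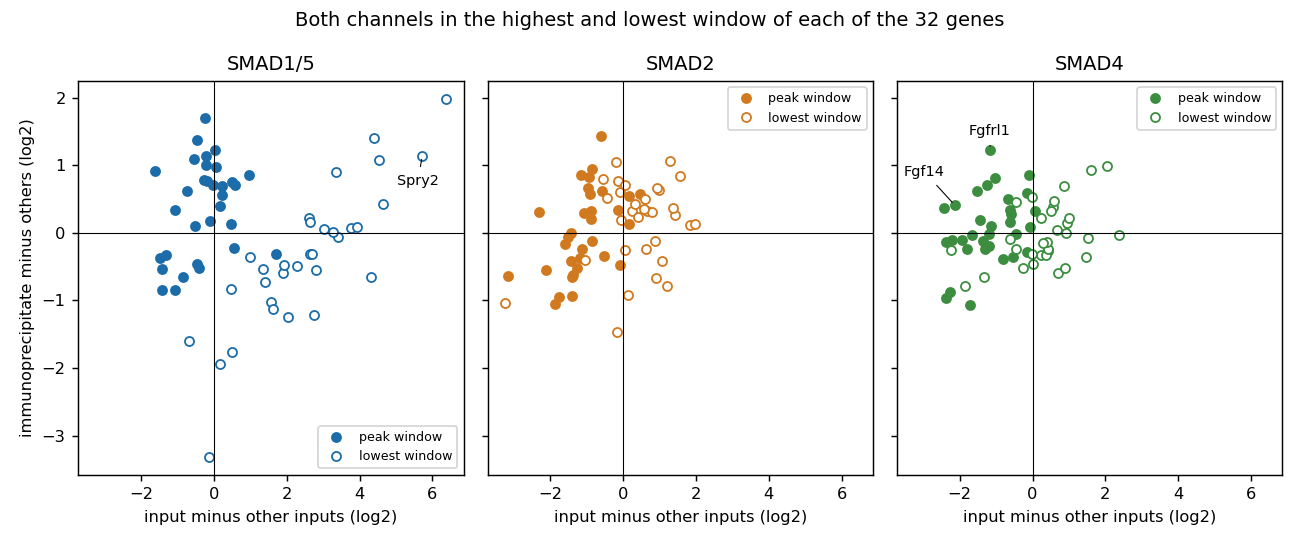
Immunoprecipitate (vertical) and input (horizontal) of each antibody minus the mean of the other antibodies, in log2 units, in the highest (filled) and lowest (open) window of each of the 32 genes; lines mark 0. SMAD2 and SMAD4 peak windows lie mostly left of 0, at lower input, and the low Spry2 window lies at an input 5.72 higher. The windows were picked by the ratio over the same input.

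Peaks of different antibodies fell at the same place in fewer than 10 genes for each pair. SMAD1/5 and SMAD2 had their highest windows within 500 bp in 9 of 32 genes (28.1%, all genes 22.9%), SMAD1/5 and SMAD4 in 5 (15.6%, all genes 19.8%) and SMAD2 and SMAD4 in 5 (15.6%, all genes 20.6%). The 5 genes of SMAD2 and SMAD4 were Fgf5, Fgf15, Fgf20, Fgfrl1 and Spry4. Fgf5 and Spry4 were shared by all pairs. Both windows had a z of at least 2 in 1 case, Fgfrl1.

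Near start sites more FGF genes lay above 0 with SMAD2 and SMAD4 than with SMAD1/5. Averaged over probes up to 500 bp from a start, the log2 ratio was above 0 in 9 of 32 genes with SMAD1/5 (all genes 32.2%), 23 with SMAD2 (all genes 54.8%) and 21 with SMAD4 (all genes 45.2%). Medians of these means were -0.74, 0.16 and 0.09 for the FGF genes, beside -0.48, 0.05 and -0.06 over the whole array. Normexp background correction put the SMAD1/5 median of the FGF genes at 0.11, and the mean input put the SMAD4 median at -0.32. The mean at the start reached 1 in 3 genes with SMAD1/5 (Fgf7, Fgf11 and Fgf23, all genes 7.47%), 3 with SMAD2 (Fgf7, Fgf9 and Fgf22, all genes 2.46%) and 2 with SMAD4 (Fgf7 and Fgf11, all genes 5.49%). The SMAD2 mean of Fgf22, 1.29, rests on 2 probes. The 2 tiled starts of Fgf12 and of Fgf14 were pooled in these means. Fgf14 thus had 0.03 ± 1.91 with SMAD4 (SD over 11 probes), though its enriched window lies at 1 of its starts.

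**Figure D5:**
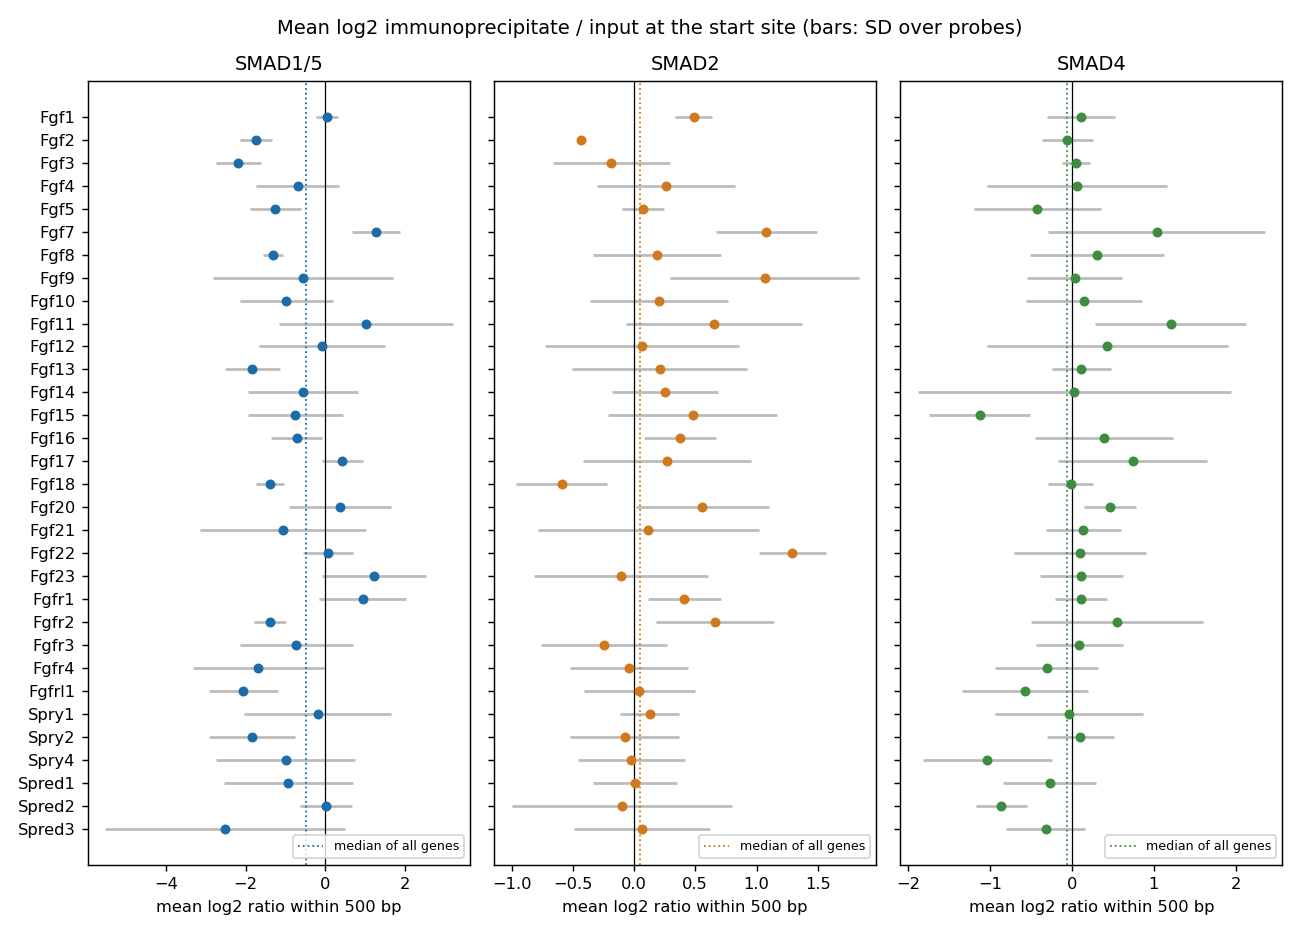
Log2 ratio of immunoprecipitate over input averaged over probes up to 500 bp from the start site, for each of the 32 genes and each antibody, with the SD over probes; the dotted line is the median of all genes. Fgf7 lies above 1 with all antibodies (1.27, 1.08 and 1.03), and Fgf11 with SMAD1/5 and SMAD4 (1.02 and 1.21). For Fgf12 and Fgf14 the probes of 2 tiled starts are pooled.

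Fgf7, also known as keratinocyte growth factor, was the 1 gene at or above 1 with all antibodies at its start site. Its means were 1.27 ± 0.60 with SMAD1/5, 1.08 ± 0.41 with SMAD2 and 1.03 ± 1.32 with SMAD4 (SD over 4 probes). The probes at -362, -64, 113 and 362 bp had 1.73, 1.67, 0.44 and 1.25 with SMAD1/5, 0.58, 1.34, 0.92 and 1.48 with SMAD2, and 0.91, 0.20, 0.09 and 2.94 with SMAD4. Every one of these values is above 0. The centred immunoprecipitates averaged 0.04, -0.17 and -0.61 there and the inputs -0.56, -1.34 and -1.53, so the immunoprecipitates were near or below the array's median and the inputs further below it. The start values of Fgf7 ran down to 0.39, 0.61 and 0.31 over the alternatives and stayed above 0.

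Fgf11 had 1.02 ± 2.18, 0.65 ± 0.72 and 1.21 ± 0.92 with SMAD1/5, SMAD2 and SMAD4 (5 probes). Its immunoprecipitates averaged 1.10, 0.77 and 0.92 and its inputs 0.52, 0.05 and -0.18, so here the immunoprecipitates were above the median of the arrays. The probe at 332 bp was high with each antibody (3.13, 1.24 and 2.51), and that at 28 bp was not (-1.42, -0.11 and 0.06). Fgf9 had 1.07 ± 0.77 with SMAD2 (6 probes), against -0.57 ± 2.26 with SMAD1/5 and 0.03 ± 0.58 with SMAD4. Fgf4 had -0.70 ± 1.03, 0.26 ± 0.56 and 0.06 ± 1.09 with SMAD1/5, SMAD2 and SMAD4 (6 probes), and each of these means was smaller in size than its SD.

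The promoters of these 4 genes are shown because they hold the start-site values above, with Fgf4 as the ligand of the cells. They run from 250 bases before the start to 50 after it, 5′ to 3′ on the gene's strand, from RefSeq with build GRCm38.p6, which is not known to be the arrays' build. They lie at chr2:126034408-126034707 (+) for Fgf7, chr11:69802231-69802530 (-) for Fgf11, chr14:58072436-58072735 (+) for Fgf9 and chr7:144861136-144861435 (+) for Fgf4. Capitals mark the SMAD box (AGAC or GTCT) and the GC-rich SMAD motifs GGCGCC and GGAGCC (or GGCTCC), on either strand.
Fgf7: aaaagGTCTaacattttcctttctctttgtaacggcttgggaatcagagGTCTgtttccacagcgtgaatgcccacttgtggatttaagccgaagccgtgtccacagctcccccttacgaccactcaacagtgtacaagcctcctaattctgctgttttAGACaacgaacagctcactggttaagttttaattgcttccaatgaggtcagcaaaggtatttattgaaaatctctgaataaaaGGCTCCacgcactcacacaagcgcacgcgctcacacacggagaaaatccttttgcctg
Fgf11: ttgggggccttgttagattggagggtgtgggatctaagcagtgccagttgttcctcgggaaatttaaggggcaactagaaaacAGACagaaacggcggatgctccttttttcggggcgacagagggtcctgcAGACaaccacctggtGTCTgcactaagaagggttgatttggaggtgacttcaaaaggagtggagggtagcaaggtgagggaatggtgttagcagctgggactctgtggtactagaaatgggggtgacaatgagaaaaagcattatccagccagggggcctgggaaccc
Fgf9: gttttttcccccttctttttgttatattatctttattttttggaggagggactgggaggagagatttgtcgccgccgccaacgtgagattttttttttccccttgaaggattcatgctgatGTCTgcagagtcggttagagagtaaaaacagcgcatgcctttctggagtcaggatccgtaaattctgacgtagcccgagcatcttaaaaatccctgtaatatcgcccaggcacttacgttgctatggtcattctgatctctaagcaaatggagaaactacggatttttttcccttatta
Fgf4: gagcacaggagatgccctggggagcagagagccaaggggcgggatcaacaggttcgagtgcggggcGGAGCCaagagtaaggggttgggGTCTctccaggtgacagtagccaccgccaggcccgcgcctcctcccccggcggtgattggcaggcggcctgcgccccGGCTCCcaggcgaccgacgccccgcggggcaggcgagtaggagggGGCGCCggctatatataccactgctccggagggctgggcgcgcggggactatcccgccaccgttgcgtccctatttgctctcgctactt

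Fgf7 and Fgf11 hold 3 SMAD boxes each and Fgf9 and Fgf4 hold 1, where the median of all promoters is 2. Among promoters not shown, Fgf21 holds 6 and Fgf3 holds 4, with SMAD1/5 start-site means of -1.06 and -2.19. Fgf23 holds 1, with a SMAD1/5 mean of 1.22. A relation of box number to start-site values was not tested. The longer form CAGAC (or GTCTG), which contains the SMAD box, is found 3 times in Fgf11, once in Fgf7, once in Fgf9 and 0 times in Fgf4. Fgf4 holds GGCGCC once and GGAGCC 2 times, Fgf7 holds GGAGCC once, and Fgf11 and Fgf9 hold neither. GC content was 45.7% in the Fgf7 promoter, 52.3% in Fgf11, 42.7% in Fgf9 and 69.7% in Fgf4, against a median of 52.7% for all promoters of the table. The part of base composition in the start-site values was not tested.

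The table held 31 promoters for 24 of the 32 genes. The SMAD box was in 26 of the 31 (83.9%, all 32851 promoters 88.0%), CAGAC in 11 (35.5%, all 49.6%) and the palindrome of GTCT directly followed by AGAC in 0 (all 0.213%). GGCGCC was in 9 (29.0%, all 11.9%) and GGAGCC in 13 (41.9%, all 30.8%), while the median GC content was 63.7% in the FGF gene promoters and 52.7% in all. Promoters of 1 gene can overlap, and a match is a string of letters, not a measured site.

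The other genes of the pathway, 58 of 63 listed ones with windows, had no enriched window with any antibody. The lists held co-receptors, binding proteins and heparan sulfate enzymes (18 with windows), the relay from RAS to ERK (22) and target genes of FGF and ERK (18). A peak z of at least 2 was reached by 6 of the 58 with SMAD1/5 (10.3%, all genes 5.95%), 12 with SMAD2 (20.7%, all genes 18.4%) and 18 with SMAD4 (31.0%, all genes 40.3%). The median peak z was 1.21, 1.41 and 1.52, beside 1.26, 1.35 and 1.74 for all genes. The highest with SMAD2 were Grb2, the adaptor that couples receptors to RAS, at 3.22 close to its start (-125 bp), and Ext1, an enzyme of heparan sulfate chains, at 2.94. With SMAD4 the highest were Ext2, the partner of Ext1, at 3.31 and Pea15, an ERK-binding protein, at 3.21 (1.86 ± 0.29, 3 probes). With SMAD1/5 the highest were the ERK-activated kinase Rps6ka1 at 2.43 and the immediate early gene Ier2 at 2.37. Low windows were called with SMAD1/5 at 3 of the 58 (5.17%, all genes 2.64%), at Gpc3 (-4.73), Map2k1 (-4.93) and Etv5 (-4.13), which encode a glypican, the ERK kinase MEK1 and an ETS factor. With the mean input their lowest z were -2.69, -1.96 and -1.77 and 0 of the 58 were called (all genes 0.197%). Without the input trend they were -4.69, -2.72 and -0.61, and Gpc3 was the 1 called (all genes 0.167%).

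Whole chromosomes had their own level on the SMAD1/5 arrays, which touches single genes. The median log2 ratio of all probes was 0.40 on chromosome 8 (Fgf20 and Fgfr1), 0.28 on chromosome 11 (Fgf11, Fgf18 and Spred2) and -0.58 on X (Fgf13 and Fgf16). The gene medians there were 0.48 for Fgf20, 0.75 for Fgfr1, 0.98 for Fgf11, -0.0095 for Fgf18, -0.36 for Spred2, -0.20 for Fgf13 and -0.51 for Fgf16. Over single probes the SD was 1.93 and 1.76 on the SMAD1/5 arrays, 0.93 and 0.91 on the SMAD2 arrays and 0.99 and 0.98 on the SMAD4 arrays, so a gene had to stand further from 0 to be called with SMAD1/5.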

How the data were processed

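ChIP-chip was measured in R1 cells on 6 arrays, 2 per antibody, grouped by the titles' antibody and array number. The deposited scanner files hold an intensity per spot and channel, which Feature Extraction background-subtracted and dye-normalised, per the file headers. The file headers name version 9.5.3.1 of it with a ChIP protocol for SMAD4, and version 9.1.3.1 with a CGH protocol for the remaining arrays, so antibody and extraction cannot be told apart there. Flags of 0 or 1 for bright, saturated and outlying spots, a measure of other kind, were also deposited. The authors' deposited log2 values, for which the submitters' processing notes name limma, were an alternative only. They correlated with the ratios used here at r from 0.74 to 0.95 over probes, so their direction is immunoprecipitate over input. Their medians ran from -0.01 to 0.08 and their slope against those ratios from 0.44 to 0.90, and their exact scale and centring stay unknown.

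Log2 ratios of processed signals were centred on each array's median with outlier-flagged spots left out (1 of the FGF gene probes with SMAD1/5, 12 with SMAD2 and 0 with SMAD4) and saturated spots kept. Windows spanned 500 bp each side with at least 3 probes. High and low probes lay beyond the 95th percentile or its counterpart, and the robust SD came from windows below the median. Start distances and names are the annotation's. Normexp (offset 50) was run in limma 3.58.1 under R 4.3.3 and the rest in Python 3.11.15. Alternatives changed the background correction, the input, the normalisation, the spot filters, the window width, the threshold, the probe minimum and the membership. Code was tested on simulated data. No test was possible with 1 replicate. The FGF genes, the pathway lists and the motifs were chosen with earlier results of these data known. All FGF genes could be named. Single probes are given for the 3 highest and 2 lowest genes per antibody, and pathway genes where called or among the 2 highest. Start-site values of Fgf4, Fgf7, Fgf9 and Fgf11, the single-probe inputs of Spry4, and the sequences, were chosen after values were seen. The arrays' number limits the precision.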

Additional observations from a re-analysis of the deposited data

Results flagged for a closer look

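In 2 called windows another antibody lay on the other side of its array's median window, with single arrays and no test of the difference. In the Fgf14 window that was enriched with SMAD4 (z 4.23), SMAD1/5 had a z of -0.21. In the Fgfrl1 window that was enriched with SMAD4 (z 4.09), SMAD1/5 had a z of -0.97.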

How the results depend on the processing

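No paired analysis was possible because each antibody has 1 biological replicate. Medians over all FGF gene probes stayed within their intervals in 24 of 24 cases, and ran from -0.05 to 0.03 with SMAD1/5, 0.06 to 0.09 with SMAD2 and -0.04 to 0.02 with SMAD4. Enriched counts with SMAD4, 2 as reported, were 0 with normexp correction (all genes 0.31%), with the authors' values (0.495%), with the mean input of 3 antibodies (0.0119%), with the trend on own input removed (0.0179%), with loess (0.894%) and at 1000 bp (1.65%). They were 1, Fgf14, at 250 bp (all genes 2.39%) and with at least 4 probes (1.88%), and 5 at a z of 3 (10.8%). With SMAD1/5 normexp gave 2 (Fgf11 and Fgfr3, all genes 5.13%), and SMAD2 gave 0 throughout. Over 9 alternatives the SMAD4 peak z, picked anew over the gene each time, ran from 1.68 to 5.02 for Fgf14 and from 1.40 to 4.11 for Fgfrl1. The following were added after seeing the data, as were the values above with the mean input or without the input trend for receptor, intracellular and pathway genes. Low counts with SMAD1/5, 1 as reported, were 6 with normexp (all genes 16.8%), 3 with the authors' values (7.81%) and at a z of 3 (10.1%), 2 at 250 bp (2.41%), and 0 with the mean input (0.197%), without the input trend (0.167%), with loess (2.9%) and at 1000 bp (1.89%). The lowest z of Spry2 there, also picked anew each time, ran from -7.85 to -1.39. Low counts with SMAD2 and SMAD4, 0 as reported, were 2 and 1 with the mean input (all genes 3.11% and 1.17%) and 1 and 1 at a z of 3 (5.04% and 1.22%). Counts at a peak z of 2 with SMAD1/5, 2 as reported, were 12 with normexp (all genes 43.6%), 6 with the authors' values (15.1%) and with loess (19.6%), 10 with the mean input (19.5%), 4 without the input trend (10.8%), 1 with only probes well above background (3.12%) and 0 at 250 bp (2.83%). With SMAD2, 9 as reported, they were 5 with normexp (all genes 13.7%), bright probes (12.3%) and loess (11.1%), 4 with the authors' values (9.19%) and at 1000 bp (14.5%), and 3 without the input trend (6.55%). With SMAD4, 17 as reported, they were 5 with the mean input (all genes 12%) and 6 without the input trend (all genes 16.1%). The start-site median of -0.74 with SMAD1/5 turned to 0.11 with normexp, and that of 0.09 with SMAD4 to -0.32 with the mean input. Fgf7 and Fgf11 stayed above 0 at the start with all antibodies in the 8 alternatives run on them. The cause of these moves was not tested. Signal over background limits the inputs, of which 72.3% and 87.0% of probes were well above background on the SMAD1/5 arrays, 88.5% and 86.1% on the SMAD2 arrays and 99.6% and 99.7% on the SMAD4 arrays. The SMAD4 flags came from another extraction version and protocol, so these shares cannot be compared directly between antibodies. An input signal of 24.2 passed at Fgf14 with SMAD4, and 99.4 did not at Fgf9 with SMAD1/5. The median input over background was 2.35 and 2.73 with SMAD1/5, 7.45 and 6.90 with SMAD2 and 5.36 and 5.05 with SMAD4.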
